A study of Mus musculus with 10 samples.

Results

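The genes described here are 10 members of the NRF2 and glutathione antioxidant programme of mouse liver: Nfe2l2, Keap1, Gclc, Gclm, Slc7a11, Gsr, Txnrd1, Srxn1, Nqo1 and Hmox1. They were chosen by gene symbol from a deposited table of 17359 genes, and all 10 were found. Livers of mice on a high-fat diet fell into 3 groups, and every group, the control included, ate that diet. The ad libitum group (AL, n = 3) ate freely. The other groups followed a weekly cycle with a 50% calorie reduction on day 1, 70% on days 2 and 3, 50% again on day 4, and unrestricted food from day 5 to day 7. The LC group (n = 4) was collected on day 3, under the 70% reduction, and the RF group (n = 3) on day 7, under free feeding. The sources used here do not give strain, sex, age, the hour of collection or the number of cycles completed. Nothing says that the libraries came from separate animals, so the p-values measure only the spread between these libraries, which may be technical.

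NRF2, encoded by Nfe2l2, is a transcription factor that pairs with small MAF proteins on antioxidant response elements. KEAP1 is the adaptor that delivers NRF2 to a ubiquitin ligase. When electrophiles or oxidants modify its cysteines, NRF2 escapes degradation and accumulates, so NRF2 activity is set largely at the protein, which these RNA data do not measure. Its targets make and recycle glutathione, keep thioredoxin reduced, and detoxify quinones and heme. The liver is the main organ that makes glutathione and exports it to blood, and fasting is known to lower its hepatic content.

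RefSeq promoter windows were at hand for 7 of the 10 genes, not for Gclc, Gsr and Hmox1. Both strands of the 250 bases before each annotated start were searched for TGACNNNGC, the core letters of the antioxidant response element, and for TGANTCA, the letters of AP-1-type sites. A TGANTCA match with C in the middle and GC after it would match both, which no window of these genes held. The 7 genes had 9 windows. The first motif was found in 3 of the 7 genes, against 3112 of the 27025 genes in RefSeq, and the second in 1, against 2113. Of the 32851 windows in RefSeq, 10.2% held the first and 6.75% the second. The 4 windows below are shown because they stand for the transcription factor itself, glutathione synthesis, peroxiredoxin repair and quinone reduction. Capitals mark the matches. The Nfe2l2 window is chr2:75704664-75704913 (minus strand), the Gclm window chr3:122245307-122245486 (plus strand), the Srxn1 window chr2:152105274-152105523 (plus strand) and the Nqo1 window chr8:107403206-107403455 (minus strand), all in GRCm38.p6. Of the Gclm window only bases -250 to -71 from the searched start are printed, those that lie before the gene's outermost annotated start, and the 70 bases next to the searched start are not.
Nfe2l2: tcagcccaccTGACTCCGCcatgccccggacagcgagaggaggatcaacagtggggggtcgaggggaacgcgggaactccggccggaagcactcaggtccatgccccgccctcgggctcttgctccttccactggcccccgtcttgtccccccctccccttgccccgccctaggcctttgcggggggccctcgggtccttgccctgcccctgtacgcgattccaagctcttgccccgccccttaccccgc
Gclm: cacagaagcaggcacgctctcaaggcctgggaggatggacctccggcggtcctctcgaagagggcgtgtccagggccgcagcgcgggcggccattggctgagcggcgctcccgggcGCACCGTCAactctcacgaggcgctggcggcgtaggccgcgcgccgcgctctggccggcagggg
Srxn1: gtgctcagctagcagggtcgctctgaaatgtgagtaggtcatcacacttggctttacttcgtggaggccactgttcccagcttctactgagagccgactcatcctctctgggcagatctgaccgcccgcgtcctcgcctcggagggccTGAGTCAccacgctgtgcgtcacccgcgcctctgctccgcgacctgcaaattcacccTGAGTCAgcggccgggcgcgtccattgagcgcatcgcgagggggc
Nqo1: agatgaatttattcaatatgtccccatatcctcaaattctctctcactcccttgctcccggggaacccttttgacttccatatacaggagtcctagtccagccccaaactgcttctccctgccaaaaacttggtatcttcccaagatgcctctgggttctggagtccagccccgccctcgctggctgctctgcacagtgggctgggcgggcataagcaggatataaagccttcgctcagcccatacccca
The Nfe2l2 match lay at bases -240 to -232 from the start. In Gclm the match was on the other strand, at bases -134 to -126. Srxn1 held 2 TGANTCA matches, at bases -102 to -96 and -45 to -39. Txnrd1 held 1 match to the first motif, before the second of its annotated starts, at bases -92 to -84. The Nqo1, Keap1 and Slc7a11 windows held no match, which says only that these letters are absent from these windows. A match is a description of letters, not a measured binding site.

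Libraries held 13871500 to 15899500 expected counts. Of the 17359 genes, 12789 passed the filter on low counts, among them 9 of the 10 described here, with Slc7a11 the exception. Levels are counts scaled to equal library size (CPM) with TMM factors, a trimmed mean of log ratios between libraries. A gene was called changed at a Benjamini-Hochberg adjusted p below 0.05 in edgeR's quasi-likelihood test, taken over all 12789 genes. Under scaling to library totals alone, the median log2 difference of all genes moved by 0.31 in LC against AL, and 86.5% of called genes were higher in LC, against 50.7% with TMM. In RF against LC the same change moved the median by -0.21 and took the higher share from 51.5% to 19.8%. With TMM the hepatocyte markers summed to 119651 to 138133 CPM in AL, 83174 to 95491 in LC and 110715 to 116275 in RF. Of the 12, 9 fell in LC against AL, where 15.6% of all genes fell. With library totals the sums were 111056 to 125977, 89192 to 112217 and 107273 to 112446 CPM, and the groups overlapped. The sinusoidal endothelial markers summed to 241 to 258, 354 to 382 and 323 to 380 CPM with TMM. Of the 11, 5 were higher in LC, as were 16.0% of all genes. With library totals these sums were 202 to 235, 378 to 426 and 311 to 368 CPM. No marker of the 11 cell types was at 0 in every library, and the markers Trac and Ighm were not analysed here. In whole liver, fewer cells of a type and less RNA per cell cannot be told apart, and the part of either in the values below was not tested.

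Levels per transcript length are in FPKM, fragments scaled by transcript length and depth. Over the 10 libraries, Gclc had a mean of 97.6 FPKM (range 51.9 to 192), Nfe2l2 of 74.0 (54.3 to 121) and Gclm of 71.3 (53.9 to 114). These ranges overlapped, and the order of the 3 changed with the group: in LC the mean of Gclc was 142 FPKM, and in RF it was 60.0, below Nfe2l2 (62.3) and Gclm (63.1). Txnrd1 came next (38.7 FPKM), then Gsr (18.1), Keap1 (16.7) and Srxn1 (12.7). Hmox1 (5.99 FPKM) and Nqo1 (5.05) were low, and Slc7a11 was near 0 (0.021). The ranges of Gsr, Keap1 and Srxn1 overlapped, as did those of Hmox1 and Nqo1, and the lowest Srxn1 library (8.88 FPKM) lay below the highest Hmox1 library (9.36), so the order among these neighbours is not beyond their spread.

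**Figure D1:**
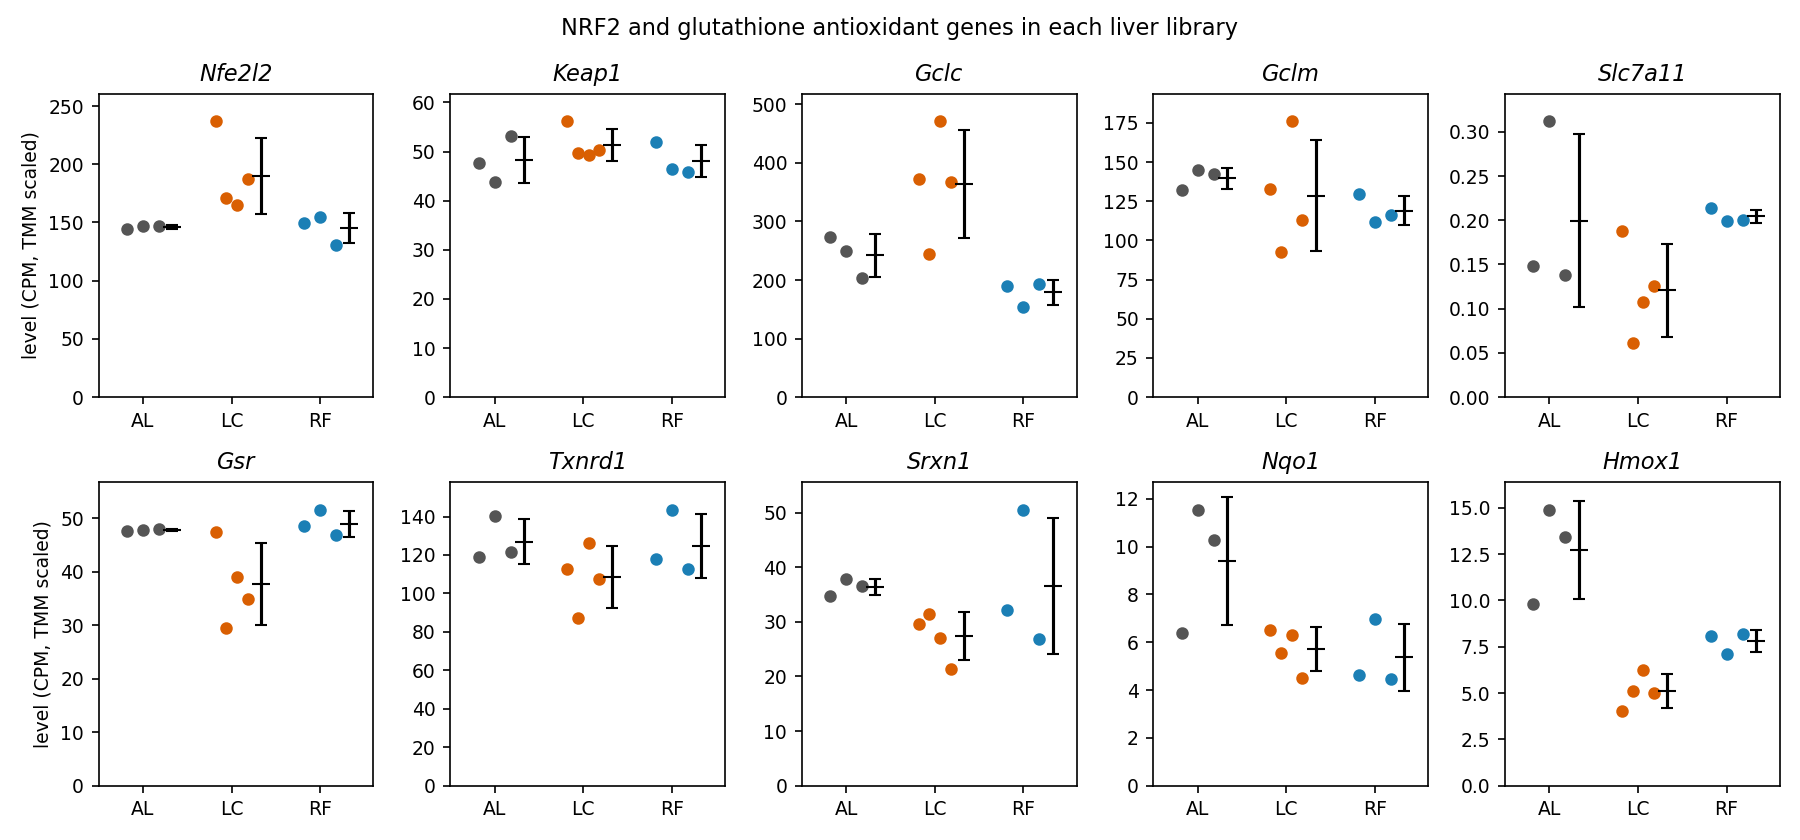
Level of each of the 10 genes in every liver library, in CPM with TMM scaling (y axes start at 0), by group. Points are libraries, ordered by replicate number, and the bar beside them is the mean with 1 SD. Hmox1 is lowest in the 4 LC libraries (4.02 to 6.25 CPM), Gclc is lowest in the 3 RF libraries (155 to 192 CPM), and the groups overlap for Nqo1. With library totals the LC range of Hmox1 overlaps with RF, and the RF range of Gclc with AL.

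On day 3 of restriction, 1 of the 9 genes tested rose against ad libitum (Gclc) and 2 fell (Nqo1 and Hmox1), while 6 were not called. Over all genes tested, 31.5% were called in this comparison. With TMM the groups did not overlap for 4 of the 9, namely Nfe2l2, Gsr, Srxn1 and Hmox1, against 35.8% of all genes, so neither count stands out from the background. With library totals Gsr and Srxn1 overlapped and Keap1 did not, which left 3 of the 9 without overlap, against 40.8% of all genes. The median log2 difference of the 9 was -0.23, and that of all genes 0.05. After 3 days of free feeding, against day 3, Hmox1 rose and Gclc fell, 7 were not called, 22.1% of all genes were called, and 3 of the 9 (Nfe2l2, Gclc and Hmox1) did not overlap with TMM, against 34.1% of all genes. With library totals Hmox1 overlapped and Keap1 did not, which left 3 of the 9 without overlap, against 37.1% of all genes.

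Nfe2l2 (NCBI gene 18024), which encodes NRF2 itself, stood at 144, 147 and 147 CPM in the 3 AL libraries. In LC it stood at 237, 171, 165 and 187 CPM, and in RF at 149.8, 155 and 130.5 CPM. All 4 LC libraries lay above every AL and RF library. The means were 146 ± 1.70 (SD, n = 3), 190.2 ± 32.6 (n = 4) and 145 ± 12.8 CPM (n = 3). LC was 0.38 higher than AL on the log2 scale (SE 0.14, adjusted p = 0.0518) and RF 0.39 lower than LC (log2 difference -0.39, SE 0.14, adjusted p = 0.0599), so neither difference was called. The difference from AL was called in 5 of the 10 alternatives. Under library totals LC was 0.70 above AL (adjusted p = 0.00271). The others were limma voom (0.0390), both FPKM scales and the filter of at least 1 CPM. It was also called without LC replicate 2 (0.0423) or 3 (0.0363). The RF difference from LC was called in 5 of the 10 alternatives, with an adjusted p of 0.0106 under library totals, 0.0399 with DESeq2, 0.0278 with limma voom and 0.0112 and 0.0114 on the FPKM scales, and without LC replicate 3 (0.0434). Keap1 (NCBI gene 50868), the repressor, was nearly level, at 48.2 ± 4.64 CPM in AL, 51.4 ± 3.24 in LC and 48.1 ± 3.34 in RF. Its LC libraries (49.3 to 56.2 CPM) overlapped with AL (43.9 to 53.1) and RF (45.9 to 51.9) with TMM, but lay above both with library totals. The log2 difference was 0.09 (SE 0.11, adjusted p = 0.574) in LC against AL and -0.10 (SE 0.11, adjusted p = 0.577) in RF against LC. Under library totals the Keap1 difference in LC against AL was 0.40 and called (adjusted p = 0.0286).

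The enzyme that commits cysteine to glutathione is glutamate-cysteine ligase, built from a catalytic subunit (Gclc) and a modifier subunit (Gclm) that raises its catalytic efficiency. Gclc was called in both comparisons with LC, and Gclm in neither. Gclc (NCBI gene 14629) was at 274, 249 and 203 CPM in AL, at 372, 245, 471 and 367 CPM in LC, and at 189.9, 155 and 192 CPM in RF. One LC library, replicate 2, lay within the AL range and the other 3 above it, and all RF libraries lay below all others. With library totals RF (149.7 to 186 CPM) overlapped with AL (185 to 261). LC was 1.50-fold above AL (log2 difference 0.59, SE 0.19, adjusted p = 0.0334), and RF was 2.03-fold below LC (log2 difference -1.02, SE 0.20, adjusted p = 0.00363). The rise in LC was not called without AL replicate 3 (adjusted p = 0.0893) or 4 (0.139), or without LC replicate 1 (0.0624), 3 (0.0907) or 4 (0.0599). Nor was it called in a fit to the AL and LC groups alone (0.0596) or with a block on replicate number. The fall in RF against LC was called under all 10 omissions of a library and all 10 other alternatives.

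Gclm (NCBI gene 14630) stood at 132, 145 and 143 CPM in AL, at 132.5, 92.5, 176 and 113 in LC, and at 129, 112 and 116 in RF. The LC libraries spread widely around the others. LC differed from AL by -0.12 on the log2 scale (SE 0.18, adjusted p = 0.633), a sign that turned positive under library totals (0.21, also not called), and RF from LC by -0.11 (SE 0.18, adjusted p = 0.688). Within LC, replicate 3 was highest and replicate 2 lowest for Gclc, Gclm and Txnrd1 alike. The ratio of Gclc to Gclm counts in a library does not depend on library scaling. It was 2.07, 1.72 and 1.42 in AL, 2.81, 2.65, 2.68 and 3.24 in LC, and 1.47, 1.39 and 1.66 in RF. All 4 LC ratios lay above every other, while AL and RF overlapped. The mean ratio was 1.74 ± 0.326 (SD, n = 3) in AL, 2.84 ± 0.274 (n = 4) in LC and 1.50 ± 0.139 (n = 3) in RF. This ratio was chosen after its values were seen and is given with no test. Slc7a11 (NCBI gene 26570), the cystine carrier of system xc-, had 1 to 4 expected counts per library (0.0616 to 0.312 CPM), too few to compare groups.

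**Figure D2:**
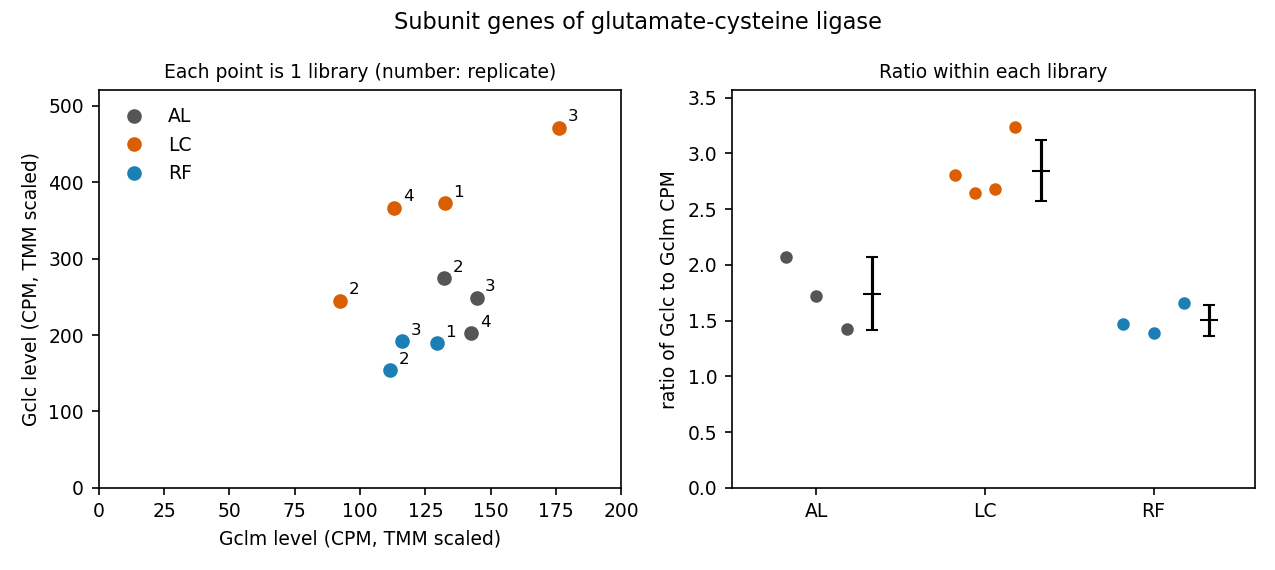
Level of Gclc against that of Gclm in each library (CPM, TMM scaled) and the Gclc to Gclm ratio of expected counts by group. Points are libraries and bars are mean and SD. The LC ratios (2.65 to 3.24) lie above those of AL (1.42 to 2.07) and RF (1.39 to 1.66).

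Gsr, Txnrd1 and Srxn1 keep thiols reduced. Gsr (NCBI gene 14782), glutathione reductase, was at 47.6, 47.8 and 47.9 CPM in AL, at 47.4, 29.4, 39.0 and 34.9 in LC, and at 48.5, 51.6 and 46.8 in RF. With TMM all LC libraries lay below AL, replicate 1 by a small margin. With library totals LC (31.3 to 54.4 CPM) overlapped with AL (39.5 to 45.3), and the log2 difference was -0.020. The log2 difference was -0.34 (SE 0.14, adjusted p = 0.0835) in LC against AL and 0.38 (SE 0.14, adjusted p = 0.0733) in RF against LC, and neither was called. Without LC replicate 1, Gsr was called in both (adjusted p = 0.0204 and 0.0218). With a block on replicate number it was called in LC against AL (0.0481). Txnrd1 (NCBI gene 50493), cytosolic thioredoxin reductase, was at 127 ± 11.8, 108 ± 16.0 and 125 ± 16.5 CPM in AL, LC and RF (n = 3, 4 and 3). Its groups overlapped, and the log2 difference of LC from AL was -0.23 (SE 0.14, adjusted p = 0.246), with a positive sign under library totals (0.10). Srxn1 (NCBI gene 76650), the sulfiredoxin that repairs hyperoxidised peroxiredoxins, was at 34.7, 37.8 and 36.6 CPM in AL, at 29.6, 31.5, 27.1 and 21.3 in LC, and at 32.2, 50.5 and 26.9 in RF. With TMM its LC libraries lay below AL without overlap, while RF spread across both, with replicate 2 the highest of all 10. The LC difference was -0.41 (SE 0.19, adjusted p = 0.118). It passed without RF replicate 2 (adjusted p = 0.0470) and in 1 of the 10 alternatives (0.0451). With library totals it was -0.093, and LC (22.8 to 34.0 CPM) overlapped with AL (31.2 to 33.4).

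Nqo1 and Hmox1 are the classical NRF2 targets. Nqo1 (NCBI gene 18104), the quinone reductase, was at 6.38, 11.5 and 10.3 CPM in AL, at 6.53, 5.54, 6.30 and 4.52 in LC, and at 4.62, 6.99 and 4.48 in RF. Groups overlapped because AL replicate 2 was as low as the LC libraries. LC was 1.64-fold below AL (log2 difference -0.71, SE 0.23, adjusted p = 0.0324), and RF against LC differed by -0.09 (SE 0.24, adjusted p = 0.812). The call in LC against AL held in 6 of the 10 alternatives. It was lost under library totals (log2 difference -0.38, adjusted p = 0.213), on both FPKM scales and with a block on replicate number. Omitting AL replicate 3 (0.169), AL replicate 4 (0.110), LC replicate 2 (0.0541) or LC replicate 4 (0.0816) also ended it. Nqo1 counts were 65 to 149 per library. Hmox1 (NCBI gene 15368), heme oxygenase 1, which opens the heme ring to release iron, carbon monoxide and biliverdin, was at 9.79, 14.9 and 13.4 CPM in AL. It was at 4.02, 5.11, 6.25 and 5.02 CPM in LC and at 8.11, 7.12 and 8.16 CPM in RF. With TMM the 3 groups did not overlap, with AL highest, RF between and LC lowest. With library totals LC (4.61 to 7.34 CPM) overlapped with RF (6.90 to 7.89). LC was 2.49-fold below AL (log2 difference -1.31, SE 0.19, adjusted p = 0.000500), and RF 1.52-fold above LC (0.61, SE 0.19, adjusted p = 0.0375). The fall in LC was called under all 10 omissions of a library (log2 difference -1.47 to -1.19) and all 10 other alternatives (-1.41 to -0.86). The rise in RF held in 7 of the 10 alternatives and was lost under library totals (adjusted p = 0.141) and on both FPKM scales. It was also lost when LC replicate 1, 2 or 4 or RF replicate 1, 2 or 3 was left out (0.0571 to 0.114). Hmox1 is also expressed by macrophages. With TMM the 13 Kupffer cell and macrophage markers summed to 174 to 262 CPM in AL, 139 to 248 in LC and 188 to 267 in RF. With library totals the sums were 144 to 239, 160 to 291 and 181 to 259 CPM, and the groups overlapped under both scalings. With TMM 3 of 13 were lower in LC, as were 15.6% of all genes. The part of macrophages in the Hmox1 values was not tested.

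**Figure D3:**
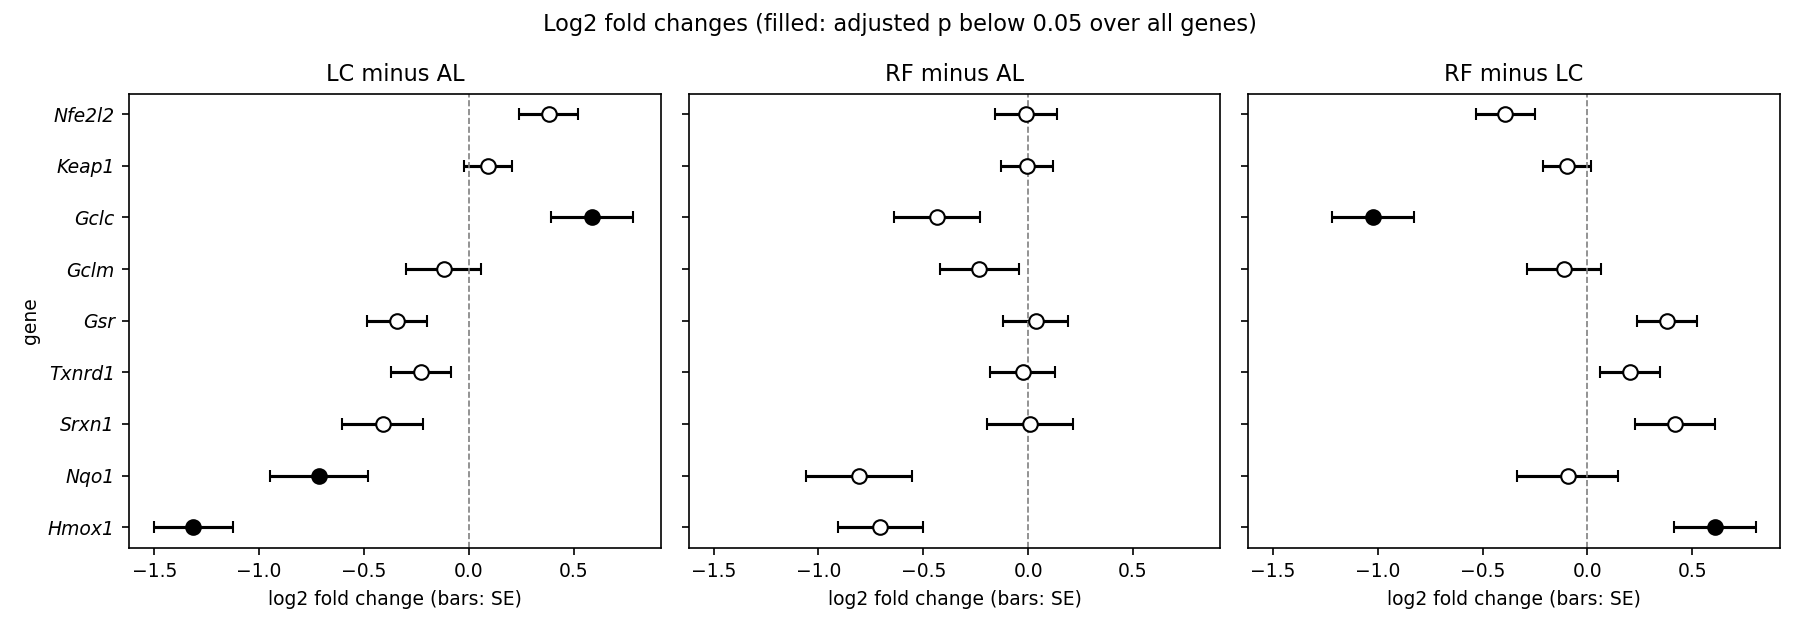
Log2 difference of each tested gene in the 3 comparisons (x axis), with its standard error, from edgeR. Filled points are called (adjusted p below 0.05). In LC against AL, Gclc lies at 0.59 and Hmox1 at -1.31. With scaling to library totals, Gclm and Txnrd1 change sign in this comparison.

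On day 7 against ad libitum, none of the 9 genes was called by edgeR's quasi-likelihood test, and neither DESeq2 nor limma voom called any. In this comparison 0.0547% of all genes were called, and 2 of the 9 (Nqo1 and Hmox1) had an unadjusted p below 0.05, as did 1381 of the 12789 genes (10.8%). With TMM groups did not overlap for Gclc, Gclm and Hmox1, each lower in RF, against 18.9% of all genes. With library totals Gclc and Gclm overlapped, and Gsr, higher in RF, did not. This left 2 of the 9 without overlap, against 18.7% of all genes. Gclc was 0.44 lower on the log2 scale (log2 difference -0.44, SE 0.20, adjusted p = 0.466), Nqo1 differed by -0.81 (SE 0.25, adjusted p = 0.297) and Hmox1 by -0.70 (SE 0.20, adjusted p = 0.257). The other 6 lay between -0.23 (Gclm) and 0.04 (Gsr). Both comparisons with AL share the AL libraries, and both comparisons with LC share the LC libraries, so their values are set side by side only.

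The wider antioxidant network was described in 8 lists that hold 132 distinct genes, of which 130 passed the filter. The lists share genes, so they are not independent. Pgd and Taldo1 are in both the other NRF2 targets and NADPH supply. Blvrb, Ftl1 and Fth1 are in both the other targets and the heme partners. The pooled counts take each gene once. In LC against AL, 8 of the 130 rose (6.15%) and 48 fell (36.9%), against 16.0% and 15.6% of all genes, and the median log2 difference was -0.31. In RF against LC, 26 rose (20.0%) and 10 fell (7.69%), against 11.4% and 10.7% of all genes, with a median of 0.15. Under library totals the 130 genes split as 19 higher and 23 lower in LC against AL, with a median of 0.0046. The median of all genes was then 0.36, and 86.5% of their calls were higher. The split in RF against LC was 14 and 18, with a median of -0.059. For all genes this median was -0.22, and 19.8% of their calls were higher. The sign of the pooled median thus turned with the scaling. Under both scalings the pooled median lay below the all-gene median in LC against AL and above it in RF against LC. Under library totals the LC medians of regulators, of the thioredoxin system and of the heme partners turned positive, at 0.17, 0.01 and 0.11, and that of the other NRF2 targets was -0.12. Of all 12789 genes, 4395 were called higher in LC against AL under this scaling and 686 lower. Genes called higher and lower in LC were then 4 and 1 of the regulators, 6 and 7 of the other targets, 2 and 2 of glutathione synthesis, and 1 and 2 of the glutathione peroxidase list. They were 3 and 3 of the thioredoxin list, 1 and 5 of the dismutases and catalase, 1 and 3 of NADPH supply, and 2 and 1 of the heme partners. For RF against LC, library totals called 3397 of all 12789 genes, 673 of them higher and the rest lower. They gave 0 regulators higher and 3 lower, and 4 and 6 of the other targets. Glutathione synthesis had 2 and 2, the peroxidase list 2 and 1, the thioredoxin list 2 and 4, the dismutases and catalase 2 and 1, NADPH supply 2 and 0, and the heme partners 1 and 2. The lists were chosen with results of these data known, and no set test was made.

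Among the 16 NRF2 pathway regulators, 3 rose and 2 fell on day 3. These were 18.8% and 12.5% of the list, near the 16.0% and 15.6% of all genes. Sqstm1, the autophagy receptor that binds KEAP1, fell from 325 ± 33.5 to 183 ± 11.0 CPM (log2 difference -0.83, adjusted p = 0.000500) and stood at 208 ± 9.35 CPM in RF, a difference of -0.64 from AL that DESeq2 and limma voom called but edgeR did not (adjusted p = 0.122). Mafg, a small MAF partner of NRF2, rose from 139.6 ± 16.1 to 208 ± 39.8 CPM (0.57, adjusted p = 0.0226), which did not pass when AL replicate 3, AL replicate 4 or LC replicate 1 was omitted (0.0607 to 0.0960). Mafk, another small MAF, went the other way, from 23.1 ± 3.95 to 17.0 ± 2.10 CPM (log2 difference -0.45, adjusted p = 0.0385). Maff, also a small MAF, was not called (0.15, adjusted p = 0.844). Prkcd, a kinase that can phosphorylate NRF2, rose by 0.68 and Trim21 by 1.03 on the log2 scale. The falls among regulators came to 1 on omitting RF replicate 3, either AL replicate 3 or replicate 4 of that group, or any of LC replicates 2 to 4. They came to 3 on omitting AL replicate 2 or LC replicate 1. Sqstm1 was called in all 10 omissions and under library totals. Where 1 fall was left, Mafk was therefore not called.

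Of 31 other NRF2 target genes tested, 2 rose and 13 fell in LC (6.45% and 41.9%, against 16.0% and 15.6% of all genes). Gstm2 fell from 70.0 ± 12.4 to 21.2 ± 7.04 CPM (log2 difference -1.73) and Gstm3 from 23.4 ± 7.77 to 9.09 ± 1.41 CPM (-1.36). Both rose again in RF, by 1.54 and 1.55 on the log2 scale. Reads of these transferases can be split between near-identical paralogs, so each is uncertain. Taldo1, transaldolase of the pentose phosphate pathway, fell by 0.88 on the log2 scale, and Blvrb, biliverdin reductase B, rose from 144 ± 5.67 to 226 ± 58.9 CPM (0.64, adjusted p = 0.0147), which did not pass when AL replicate 3 was omitted (0.0666). In RF against AL, edgeR called Gsta2 alone of this list, falling from 40.2 ± 12.3 to 15.4 ± 2.58 CPM (-1.39, adjusted p = 0.0341). It did not pass when any RF library, AL replicate 3, or LC replicate 3 or 4 was omitted (0.0659 to 0.203), under library totals (0.0717), on the FPKM scales (0.119 and 0.104) or with the compared groups alone (0.109), and it too has close paralogs. DESeq2 called Gsta1, Abcc3 and Gsta2 lower, and limma voom Gsta1 and Gsta2. Without AL replicate 4 the count that fell in LC was 8, and without AL replicate 3 none rose.

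Of 15 other genes of glutathione synthesis and turnover, 1 rose and 6 fell in LC (6.67% and 40.0%, against 16.0% and 15.6% of all genes). Lap3, leucine aminopeptidase, fell from 301 ± 40.9 to 136 ± 8.56 CPM (log2 difference -1.14, adjusted p = 0.000159), and Cbs, which starts transsulfuration of homocysteine toward cysteine, from 316 ± 49.2 to 186 ± 31.3 (-0.77). Oplah, which returns oxoproline to glutamate, rose from 141 ± 16.7 to 223 ± 33.5 CPM (0.67, adjusted p = 0.00439). In RF, Lap3 rose against LC by 0.84 and Cbs by 0.53 on the log2 scale, and Oplah fell by 0.54. The Cbs rise did not pass under library totals (adjusted p = 0.166) or on the FPKM scales (0.157 on each). It also did not pass when LC replicate 4 or any RF library was omitted (0.0599 to 0.0848), nor did the Oplah fall when RF replicate 2 was (0.0910). The count that fell was 2 without AL replicate 3.

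In the lists that handle peroxides and superoxide, more genes fell than rose with TMM scaling. The falls were 42.9% of the peroxidase list, 36.8% of the thioredoxin list and 53.3% of the dismutases and catalase, against 15.6% of all genes. The rises were 0%, 10.5% and 0%, against 16.0% of all genes. Of the 14 glutathione peroxidases, glutaredoxins and glyoxalases, 0 rose (0 also at an unadjusted p below 0.05 by edgeR) and 6 fell, with Gstk1 going from 223 ± 41.1 to 87.9 ± 13.3 CPM (log2 difference -1.34). Of 19 thioredoxin and peroxiredoxin genes, 2 rose and 7 fell, with Prdx1 going from 891 ± 127 to 488 ± 34.4 CPM (-0.87) and Prdx3, the mitochondrial peroxiredoxin, from 111 ± 27.9 to 50.2 ± 4.23 (-1.15). Of 15 superoxide dismutases, catalase and other antioxidants, 8 fell and 0 rose (9 and 0 at an unadjusted p below 0.05 by edgeR). Cat, catalase, fell from 2914 ± 549.5 to 1685 ± 243 CPM (-0.79), and Nqo2, the paralog of Nqo1, from 124 ± 21.1 to 71.7 ± 3.06 (-0.78). Without AL replicate 3 the falls among peroxidases were 3, and among dismutases and catalase 5, the latter also without AL replicate 4.

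In RF against LC, Gstk1 rose by 0.98, Prdx3 by 0.92, Nqo2 by 0.66 and Cat by 0.50 on the log2 scale. The Cat rise did not pass under library totals (adjusted p = 0.161) or on the FPKM scales (0.143 and 0.144). It also did not pass when LC replicate 1, 2 or 4 or any RF library was omitted (0.0606 to 0.115). Gpx4, which reduces lipid peroxides, fell by 0.48 and Txnrd2, the mitochondrial reductase, by 0.83. The Gpx4 fall did not pass when AL replicate 3, LC replicate 2 or 4 or any RF library was omitted (0.0506 to 0.117). Sesn2, a stress-induced sestrin, fell by 1.20.

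NADPH feeds Gsr, Txnrd1 and Nqo1. Of 14 genes of NADPH supply, 5 fell in LC and 0 rose (7 and 0 at an unadjusted p below 0.05 by edgeR). The 5 falls were 35.7% of the list, against 15.6% of all genes. Idh1, cytosolic isocitrate dehydrogenase, fell from 521 ± 68.1 to 325 ± 6.53 CPM (log2 difference -0.68) and Pgd, of the pentose phosphate pathway, from 38.3 ± 6.96 to 24.8 ± 3.31 (-0.63). The Pgd fall did not pass under library totals (adjusted p = 0.154), on the FPKM scales (0.188 and 0.182) or without AL replicate 4 (0.0725). In RF against LC 6 of the 14 rose (42.9%, against 11.4% of all genes), with Pgd at 0.92 and Idh1 at 0.60 on the log2 scale. That count was 2 under library totals and without RF replicate 2, and 3 without LC replicate 1, LC replicate 4 or RF replicate 1. Without AL replicate 2 the falls in LC were 8, and without AL replicate 4 they were 3. Among 14 heme and iron partners of HMOX1, 1 rose (Blvrb) and 5 fell in LC (7.14% and 35.7%, against 16.0% and 15.6% of all genes). Cpox, of heme synthesis, went from 104 ± 21.8 to 57.8 ± 4.25 CPM (-0.84) and Hpx, the heme scavenger hemopexin, from 3148 ± 599 to 1974 ± 247 (-0.67). The Hpx fall did not pass under library totals (adjusted p = 0.0924) or on the FPKM scales (0.121 and 0.119). Of the 5 erythroid markers tested, 2 fell in LC (median log2 difference -0.96), against 15.6% of all genes. With TMM the erythroid list summed to 473 to 716 CPM in AL, 274 to 407 in LC and 325 to 1029 in RF. With library totals the sums were 391 to 681, 314 to 436 and 313 to 997 CPM, and the groups overlapped. The part of erythroid cells in the heme partners was not tested. Without AL replicate 4 the falls were 3.

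**Figure D4:**
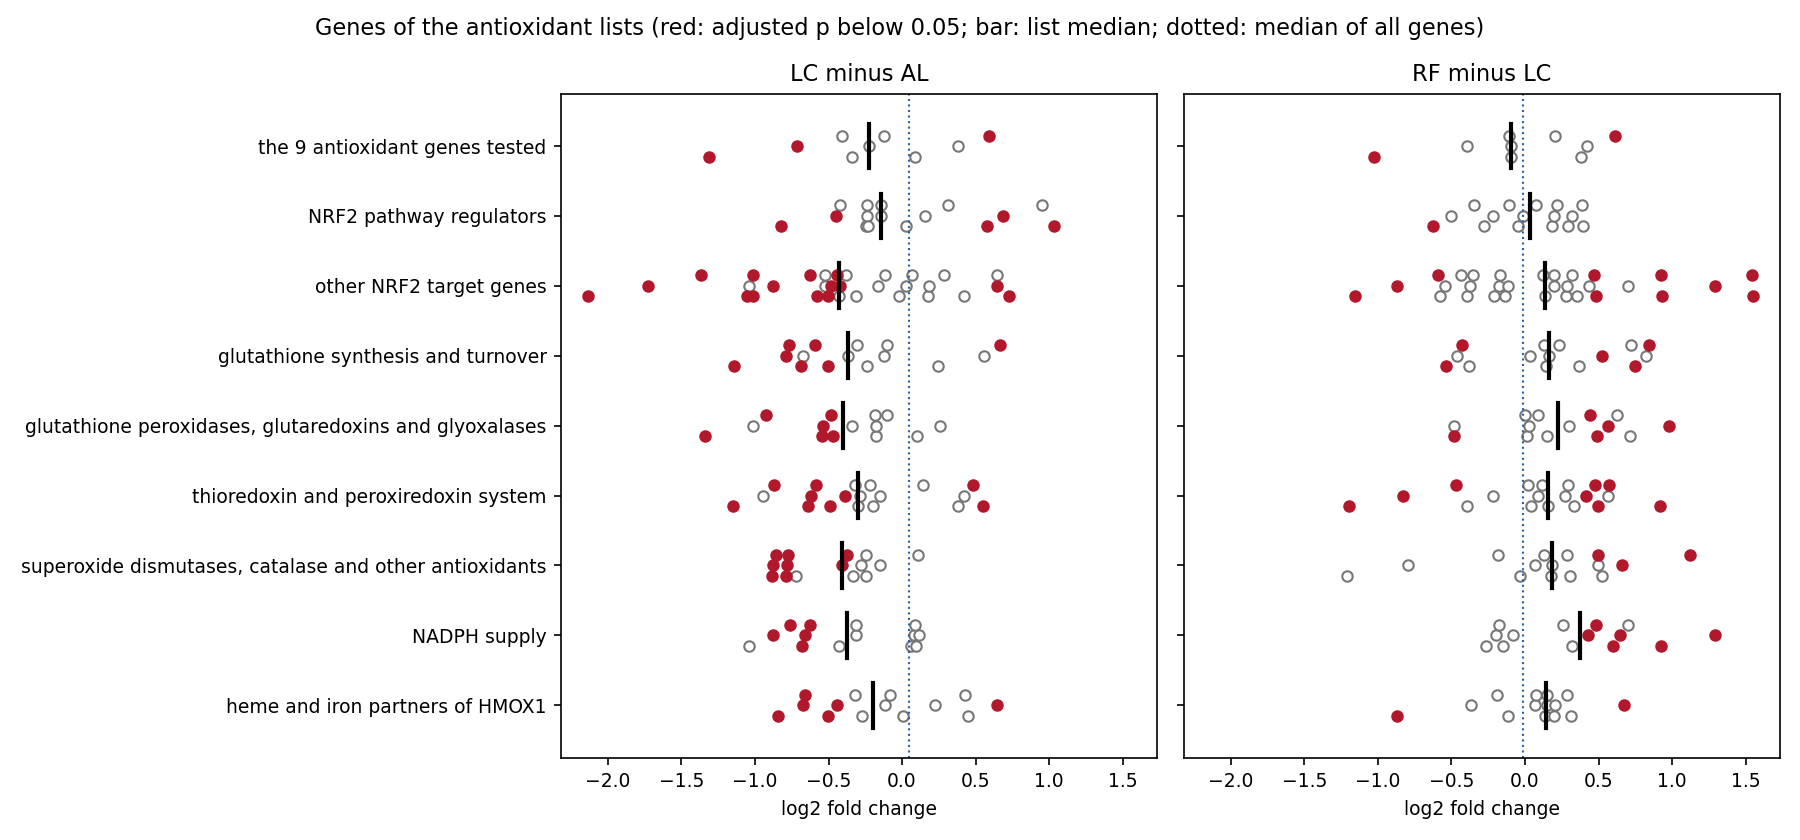
Log2 differences of the genes of the 8 antioxidant lists in LC against AL and RF against LC, from edgeR. Points are genes, filled red where called, the bar is the list's median and the dotted line the median of all genes, with the 9 tested genes on top. Each of the 8 lists has a median below 0 in LC against AL, from -0.43 to -0.14. With library totals 3 medians are above 0, and the median of all genes is then 0.36.

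The genes whose log2 CPM followed a called member most closely over the 10 libraries were described by Pearson's r, which is no test, over 9294 genes that share libraries and scaling. Hmox1 ran with Tmbim6 (r = 0.989), Tvp23b (0.983) and Cd81 (0.981). Gclc ran with Slc17a2 (0.952), Pla2g12a (0.950) and Scaf11 (0.949), and Nqo1 with Fam122a (0.898), Tmem189 (0.886) and Tm4sf4 (0.867).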

How the data were processed

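10 libraries of mouse liver RNA were sequenced. Per the labels' protocols, libraries were enriched for poly(A) RNA, did not keep strand, and ran on a BGI DNBSEQ instrument, so reads of a gene and an antisense neighbour cannot be separated. The extract protocol gives RNA integrity numbers of 6.6 to 8.5, and the part of RNA integrity in the values was not tested. Per the submitters' processing notes the tools included HISAT and Bowtie2, without versions, and the build was GRCm39. The sources used here do not give the counting program or annotation. The authors deposited expected counts, estimates that need not be whole (10.9% of values were not), and FPKM, scaled by length and depth, in a separate deposited table.

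Rounded expected counts were filtered with filterByExpr (12789 of 17359 left), scaled with TMM, and fitted with a mean for each of the 3 groups over all 10 libraries in edgeR 4.0.16 under R 4.3.3 (glmQLFit, robust, and its quasi-likelihood F test). P-values were Benjamini-Hochberg adjusted over all genes tested, with a threshold of 0.05. The SE is the absolute log2 difference over the square root of F. The script was tested on simulated data. Library totals were 13871500 to 15899500, and their number of counts limits Nqo1, Hmox1 and Slc7a11 most.

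Alternatives were relative log expression factors, library totals, DESeq2 1.42.0, limma voom (3.58.1), no filter, at least 1 CPM in at least 3 libraries, limma on log2(FPKM + 1) and log2(FPKM + 0.1), the compared groups alone, a block on replicate number, and leaving out each library. On the FPKM scales a log2 difference is of value plus pseudocount and understates low genes. Promoter sequences are RefSeq's, in GRCm38.p6, and no coordinates were converted. Named list genes are, per list and comparison, up to 4 called genes of smallest p and the first of the other direction. Mafk and Maff are named besides, as the other small MAF genes of the regulator list. Likeness is over genes of mean 5 CPM or more, on log2(CPM + 0.5), and names 3 genes per called member. The members and lists were chosen with earlier results of these data known. The alternatives for the lists and their genes, and the overlap of groups on library totals, were added after the data were seen.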

Additional observations from a re-analysis of the deposited data

Results flagged for a closer look

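In 3 of 50 groups of 4 libraries examined, 1 library lay far from the other 3, and chance alone gives about 1 in 20 such groups. All 3 are LC replicate 1. Keap1 stood at 56.2 CPM there, against 49.3 to 50.3 CPM in the other LC libraries. Aox1, aldehyde oxidase, stood at 337 CPM, against 208 to 213 CPM. Nqo2 stood at 67.1 CPM, against 72.6 to 73.6 CPM. LC replicate 1 was also the highest of its group for Nfe2l2, Gsr and Nqo1, and the lowest for Hmox1.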

How the results depend on the processing

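In LC against AL, 3 of the 9 genes were higher and 1 lower under library totals and on both FPKM scales, against 1 and 2. Genes called over the whole table were then 4395 higher and 686 lower (library totals), 4287 and 713 (log2(FPKM + 1)), and 4314 and 717 (log2(FPKM + 0.1)). Limma voom and the 1 CPM filter gave 2 of the 9 higher, and the compared groups alone 0. In RF against LC, library totals and both FPKM scales gave 0 of the 9 higher and 2 lower, and DESeq2 and limma voom 2 lower. The whole table then gave 673 and 2724, 717 and 2808, and 711 and 2694. In RF against AL none of the 9 was called under any of the 10 alternatives or omissions. The whole table gave 4 higher and 1 lower under library totals, 39 and 61 with DESeq2, 16 and 29 with limma voom, 5 and 8 with no filter, and 1 and 1 on each FPKM scale, against 2 and 5. The cause was not tested. Signs turned, without a call, for Gclm in LC against AL (0.21, 0.15 and 0.15 under library totals and the FPKM scales) and Txnrd1 (0.10, 0.074 and 0.075). In RF against AL they turned for Nfe2l2 (0.099, 0.091 and 0.093), Keap1 (0.099, 0.076 and 0.081) and Txnrd1 (0.089, 0.075 and 0.077). Srxn1 was at -0.014 with relative log expression factors, -0.017 with DESeq2 and -0.14 with limma voom. In RF against LC, Txnrd1 was at -0.010 under library totals.

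Leaving out each library gave 0 to 2 of the 9 higher and 1 to 3 lower in LC against AL, and 0 to 1 higher and 1 to 2 lower in RF against LC. Over the whole table it gave 959 to 2186 higher and 1151 to 2167 lower in LC against AL, 1 to 4 and 0 to 10 in RF against AL, and 792 to 1604 and 643 to 1537 in RF against LC. Signs turned for Gclm in LC against AL (-0.31 to 0.010) and RF against LC (-0.24 to 0.078), and for Nqo1 in RF against LC (-0.33 to 0.019). In RF against AL they turned for Nfe2l2 (-0.059 to 0.046), Keap1 (-0.070 to 0.069), Gsr (-0.0030 to 0.053), Txnrd1 (-0.14 to 0.053) and Srxn1 (-0.30 to 0.17).

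Replicate numbers are shared by groups, but same-numbered libraries did not deviate together in every pair (r = 0.023, -0.034 and 0.106 in LC against AL, -0.064 and 0.015 in RF against AL, 0.298, 0.216 and 0.053 in RF against LC). Each library correlated best with its own number for 3 of 6 in LC against AL and 6 of 6 in RF against LC. With the replicate block, 0 of the 9 were higher in LC against AL (Gclc 0.53, adjusted p = 0.0582), Nqo1 was not called (0.0660) and Gsr was (0.0481). The block also ended the calls of Gpx4 in RF against LC (-0.37, adjusted p = 0.0652) and Gsta2 in RF against AL (0.163). The main fit had no block. Over the whole table the block gave 3858 calls in LC against AL, against 4034 without it. In RF against LC it gave 3230, against 2821. In RF against AL the block gave 1 gene higher over the whole table, Gsr at -0.045 and Srxn1 at -0.099.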
